A study of Mus musculus with 12 samples.

Results

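Acetate that enters brain cells is joined to coenzyme A to give acetyl-CoA, the donor of acetyl groups for lipids and proteins. Most acetyl-CoA is made in mitochondria from pyruvate and leaves them as citrate, and in neurons a share of it is stored as N-acetylaspartate, which oligodendrocytes split back into acetate and aspartate. The 10 genes described here encode enzymes and carriers of these steps: Acss1, Acss2, Acly, Slc25a1, Slc16a1, Slc16a7, Nat8l, Aspa, Pdha1 and Acat1. They were chosen by symbol, though with earlier results of these data known. All 10 had a row among the 24985 genes of the count table, and edgeR's low-count filter, which kept 14742 genes, kept all 10.

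RNA was counted in the dorsal hippocampus (CA1, CA2, CA3 and dentate gyrus) of the injected side of 12 wild-type C57Bl6/J mice, 3 in each of 4 groups. At an age of 6 months the mice received 1 µg AD tau, aggregated tau purified from the brains of people with Alzheimer's disease, or PBS into the dorsal hippocampus of 1 hemisphere, and were then kept for 6 months on chow with 5% acetate or on a control chow of equal calories. Tissue was taken 24 h after a test of remote memory, which all 4 groups shared. PBS-injected mice on the control diet had neither treatment, and the design gives the effect of acetate in PBS-injected and in tau-injected mice, the effect of tau on each diet, the interaction of diet and injection, and the effect of acetate averaged over both injections. The seeded tau is a protein and left no transcript by which the injection could be checked.

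Each library held 12983233 to 20218340 counted reads. Compared within each group, no pair of libraries was close enough to be 1 library. Levels are given as CPM, counts scaled to the library total after TMM normalisation, and SE is the standard error. Summed levels of marker genes in the text are CPM of the unfiltered counts without TMM normalisation. A gene was called when its p from edgeR's quasi-likelihood F test, adjusted over all 14742 genes, was below 0.1. The labels give the mice as male, whereas Xist, which is transcribed from an inactive X chromosome, had between 13583 and 25991 counts in each of the 12 libraries and 8 Y-linked genes had 0 counts in total, so no comparison could be made without these libraries. All 74 genes of 12 marker lists for hippocampal neurons, glia, vessels and neighbouring tissues passed the filter. The 10 oligodendrocyte markers (Mbp, Mog, Mag and others) differed between the groups, with a summed level of 7165 to 9237 CPM in PBS-injected control mice, 4534 to 6314 CPM in PBS-injected acetate mice, 4773 to 5772 CPM in tau-injected control mice and 5523 to 8773 CPM in tau-injected acetate mice. With acetate in PBS-injected mice edgeR called 4 of 5 CA1 markers higher and 2 of 6 CA3 markers lower, against 8.84% of all genes. Their median log2 fold changes were 0.68 and -0.58. Averaged over both injections, 5 of 5 CA1 markers lay above 0 with acetate and 5 of 6 CA3 markers below 0. The medians were 0.44 and -0.37. Here edgeR called 1 and 0 of them (5.76% of all genes), and DESeq2 5 and 2 (1056 of 19626 genes).

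Of the 10 genes, Pdha1, a subunit of the enzyme that turns pyruvate into acetyl-CoA, was called in 1 comparison: it fell by 7.49% on the acetate diet averaged over both injections, where 5.76% of all genes tested were called. Aspa, the enzyme that splits N-acetylaspartate, varied most between mice and followed the oligodendrocyte markers, and missed the threshold in every comparison by edgeR's test. The other 8 genes, among them both acetyl-CoA synthetases, were not called in any comparison. Without Aspa, the log2 fold changes of the other 9 genes between pairs of groups lay between -0.18 and 0.15. Their 95% intervals together reached from -21.3% (lower limit of Slc16a1) to 25.4% (upper limit of Slc25a1).

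Per kilobase of exon, the levels of the 10 genes spanned a wide range. Pdha1 stood highest at 70.6 CPM per kilobase averaged over the 12 mice (lowest 65.5, highest 75.8), and Nat8l, the synthase of N-acetylaspartate, followed at 59.8 (56.2 to 65.0). Acly reached 30.8, Acat1 23.9, Slc25a1 13.7, Slc16a1 9.32, Acss1 8.22, Acss2 5.40, Slc16a7 4.84 and Aspa 3.48 CPM per kilobase. The ranges over mice of neighbours in this order did not overlap down to Slc16a1, and those of Slc16a1 and Acss1, of Acss2 and Slc16a7, and of Slc16a7 and Aspa overlapped. The lower part of the order depended on the length used. With the longest coding transcript in place of all exon bases, a choice made after the data were seen, Acss2 stood at 18.7 and Aspa at 11.9 CPM per kilobase, in the fifth and the seventh place, and the first 4 genes held their places.

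**Figure D1:**
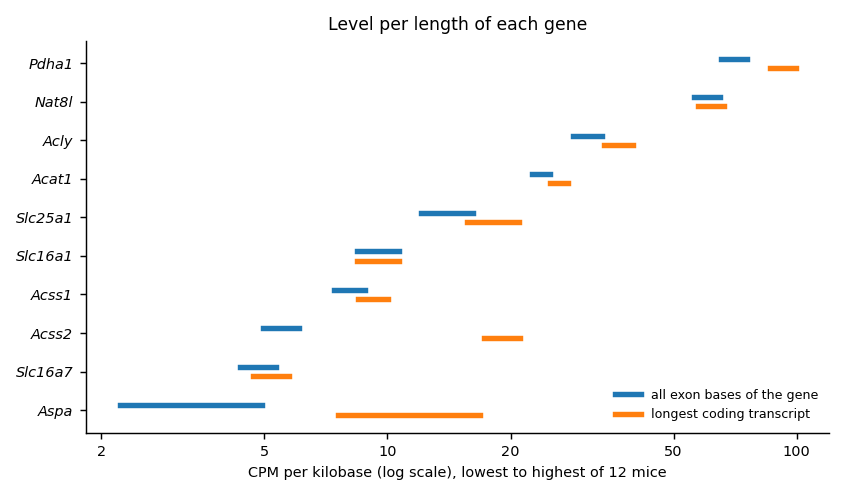
Level of each of the 10 genes in CPM per kilobase on a log axis. Each bar runs from the lowest to the highest of the 12 mice, in blue with all exon bases of the gene as length and in orange with its longest coding transcript; Pdha1 (mean 70.6 in blue) and Nat8l (59.8) lead with either length, and Aspa (3.48) and Acss2 (5.40) move most between the lengths.

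Mice of a group differed little in most of these genes. The pooled SD of log2 CPM within groups was 0.04 for Acat1 and 0.05 for Pdha1, smaller than in all but 2.45% and 3.90% of the genes tested, whose median was 0.12. For Aspa it was 0.27, above that of 82.0% of genes. The highest of the 12 mice exceeded the lowest by a factor of 1.11 in Acat1, up to 1.34 in Slc25a1, and 2.23 in Aspa. Counts per mouse lay between 197 (Aspa, lowest mouse) and 8077 (Nat8l, highest mouse).

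**Figure D2:**
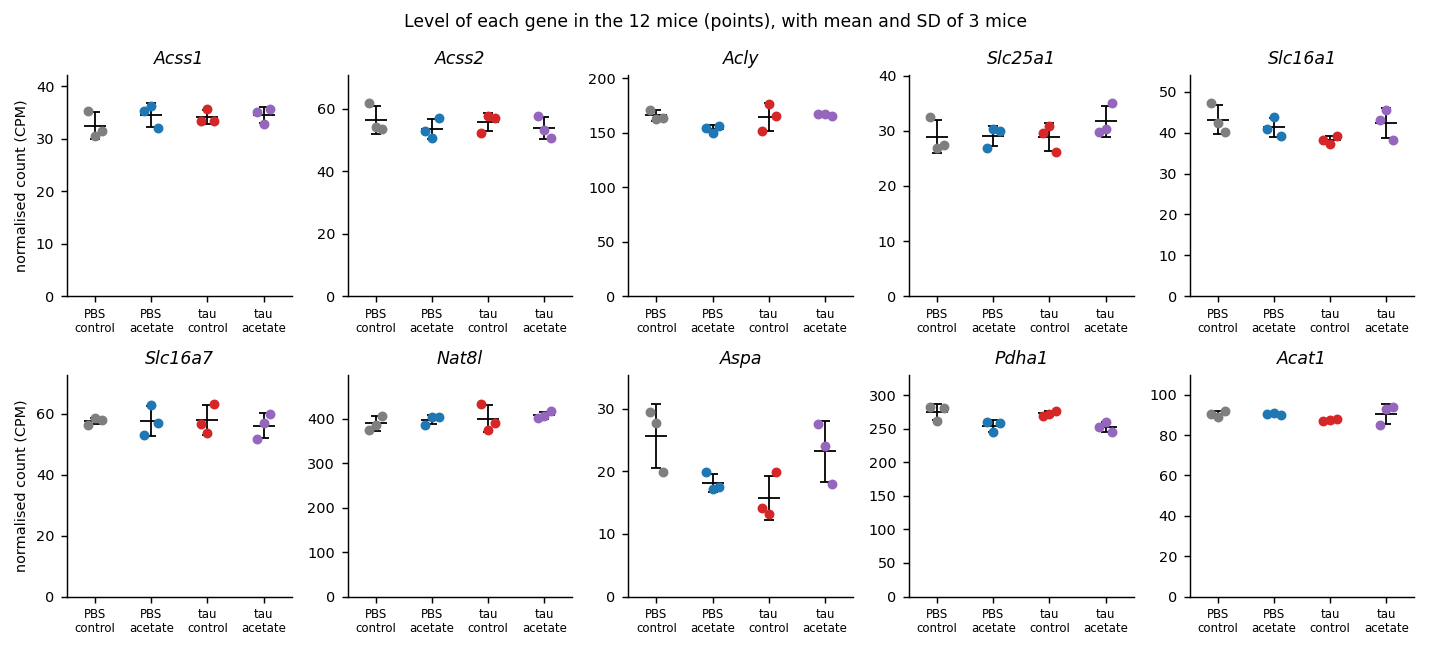
Normalised counts (CPM) of the 10 genes by group, each axis starting at 0. Points are mice and bars give the mean and SD of 3 mice; the 3 mice of each acetate group lie below the 3 control-diet mice of the same injection in Pdha1 (244 to 260 against 261 to 283 CPM over both injections), and the groups of Aspa are spread most widely.

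The first pair are the acetyl-CoA synthetases, which activate acetate itself. Acss1 (chromosome 2, 150618105 to 150668500 in GRCm38, the build of all positions given) encodes the mitochondrial enzyme. Its levels were 35.4, 30.6 and 31.5 CPM in PBS-injected control mice, 35.3, 36.3 and 32.1 in PBS-injected acetate mice, 33.4, 35.6 and 33.4 in tau-injected control mice, and 35.1, 32.9 and 35.8 in tau-injected acetate mice. All 4 groups overlapped, and the log2 fold change on the acetate diet was 0.09 in PBS-injected mice (95% interval -0.07 to 0.25) and 0.02 in tau-injected mice (-0.14 to 0.18). Acss2 encodes the nuclear and cytosolic enzyme and lies on chromosome 2 from 155517948 to 155585724. It had 61.7, 54.1 and 53.6 CPM in PBS-injected control mice, 53.0, 50.6 and 56.9 in PBS-injected acetate mice, 52.3, 57.6 and 57.1 in tau-injected control mice, and 57.7, 53.3 and 50.5 in tau-injected acetate mice. Here too the groups overlapped in each comparison. The log2 fold change of Acss2 was -0.08 (95% interval -0.23 to 0.07) with acetate in PBS-injected mice, -0.05 (-0.20 to 0.11) with acetate in tau-injected mice and -0.02 (-0.18 to 0.13) with tau on the control diet. Averaged over both injections it was -0.06 (-0.17 to 0.05, or -11.3% to 3.19%). The count of Acss2, not scaled by gene length, was 1.62 ± 0.13 times that of Acss1 in the same mouse (SD, n = 12), and between 1.39 and 1.77 in single mice. Per kilobase of exon Acss2 stood below Acss1 (5.40 against 8.22 CPM), and per kilobase of the longest coding transcript above it (18.7 against 9.38 CPM).

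Citrate carries acetyl units out of the mitochondrion, and ATP citrate lyase splits it in the cytosol. Slc25a1, the mitochondrial citrate carrier, lies on chromosome 16 from 17925223 to 17928219 and had 32.5, 26.9 and 27.5 CPM in PBS-injected control mice, 26.9, 30.3 and 30.0 in PBS-injected acetate mice, 29.6, 30.9 and 26.1 in tau-injected control mice, and 29.7, 30.4 and 34.9 in tau-injected acetate mice. The groups overlapped in each comparison. Its log2 fold changes between pairs of groups lay between -0.01 and 0.13. Acly, which encodes ATP citrate lyase, lies on chromosome 11 from 100476353 to 100528000. It had 171, 162 and 164 CPM in PBS-injected control mice, 154, 150 and 156 in PBS-injected acetate mice, 151, 176 and 165 in tau-injected control mice, and 167, 168 and 165 in tau-injected acetate mice. The PBS-injected acetate mice thus lay below the PBS-injected control mice and below the tau-injected acetate mice with no overlap, whereas the tau-injected groups overlapped each other. The log2 fold change of Acly was -0.11 (SE 0.05, edgeR adjusted p = 0.249) with acetate in PBS-injected mice and 0.12 (SE 0.05, edgeR adjusted p = 0.453) with tau on the acetate diet. These comparisons share the PBS-injected acetate mice, and neither passed the threshold. Nor did the interaction of diet and injection (0.13, 95% interval -0.03 to 0.29, edgeR adjusted p = 0.493).

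Acetate, lactate and ketone bodies cross membranes through monocarboxylate transporters. Slc16a1 encodes MCT1, found in endothelial cells and glia, and lies on chromosome 3 from 104638668 to 104658462. It had 47.2, 42.3 and 40.1 CPM in PBS-injected control mice, 41.0, 43.8 and 39.2 in PBS-injected acetate mice, 38.2, 37.2 and 39.2 in tau-injected control mice, and 43.1, 45.6 and 38.3 in tau-injected acetate mice. On the control diet the 3 tau-injected mice lay below the 3 PBS-injected mice, with a log2 fold change of -0.18 (SE 0.08, edgeR adjusted p = 0.483). Relative to 8 endothelial markers (Cldn5, Flt1, Pecam1 and others), whose summed level was 269 to 287 CPM in PBS-injected and 273 to 304 CPM in tau-injected control mice and of which 0 of 8 were called between them by edgeR (1 at an unadjusted p below 0.05, 0 by DESeq2), the log2 level of Slc16a1 differed by -0.24 between tau and PBS on this diet (p = 0.1 by a two-sided exact permutation test, which cannot go lower with 3 mice against 3). With acetate the log2 fold change of Slc16a1 was -0.06 in PBS-injected and 0.15 in tau-injected mice, and with tau on the acetate diet 0.03. The medians of the 10 oligodendrocyte markers had the same signs, at -0.61, 0.52 and 0.47, and -0.62 with tau on the control diet. Slc16a1 was not set against these markers, and their part in its values was not tested. Slc16a7 encodes MCT2, the transporter of neurons, and lies on chromosome 10 from 125219270 to 125389465. It had 56.4, 58.5 and 57.9 CPM in PBS-injected control mice, 53.1, 62.9 and 56.8 in PBS-injected acetate mice, 56.5, 53.7 and 63.3 in tau-injected control mice, and 51.6, 56.8 and 59.7 in tau-injected acetate mice. Its groups overlapped in each comparison, and its log2 fold changes between pairs of groups lay between -0.05 and 0.00.

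N-acetylaspartate is made by the product of Nat8l and split by that of Aspa. Nat8l lies on chromosome 5 from 33995984 to 34005916. It had 375, 386 and 407 CPM in PBS-injected control mice, 387, 404 and 403 in PBS-injected acetate mice, 433, 375 and 391 in tau-injected control mice, and 400, 406 and 416 in tau-injected acetate mice. The groups overlapped in each comparison, and the log2 fold changes between pairs of groups lay between 0.03 and 0.04, with 95% intervals that together reached from -0.09 to 0.15.

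Aspa lies on chromosome 11 from 73304992 to 73329596 and encodes aspartoacylase, an enzyme of oligodendrocytes. It had 29.5, 27.7 and 19.8 CPM in PBS-injected control mice and 19.8, 17.1 and 17.6 in PBS-injected acetate mice. In tau-injected mice it had 14.2, 13.2 and 19.8 CPM on the control diet and 27.6, 24.0 and 18.0 on the acetate diet. The high values were in PBS-injected control mice and tau-injected acetate mice, and the low ones in the other two groups. Aspa of PBS-injected control mouse 3, the lowest of its group, equalled the highest mouse of the PBS-injected acetate and of the tau-injected control group to the digits given, so that these groups were kept from overlapping by less than 0.1 CPM. The log2 fold change of Aspa on the acetate diet was -0.50 in PBS-injected mice (95% interval -0.92 to -0.08, edgeR adjusted p = 0.167) and 0.57 in tau-injected mice (0.14 to 1.01, edgeR adjusted p = 0.335). With tau it was -0.71 on the control diet (-1.15 to -0.28, edgeR adjusted p = 0.343) and 0.36 on the acetate diet (-0.06 to 0.78, edgeR adjusted p = 0.547). These 4 values rest on 4 groups and share mice. The interaction of diet and injection was 1.07 (95% interval 0.47 to 1.68, edgeR adjusted p = 0.121). DESeq2's Wald test on the same 12 mice called Aspa for the interaction (adjusted p = 0.0043), for acetate in PBS-injected mice (0.0588) and in tau-injected mice (0.0844), and for tau on the control diet (0.0329). By edgeR the interaction passed without mouse 3 of the PBS-injected control (adjusted p = 0.0723), the tau-injected control (0.0529) or the tau-injected acetate group (0.0245), the mouse of each group whose Aspa was nearest to the opposite groups. The effect of acetate in PBS-injected mice passed without tau-injected acetate mouse 3 (edgeR adjusted p = 0.0988) and when edgeR was run on the 6 PBS-injected mice alone (0.0534).

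The 10 oligodendrocyte markers moved with Aspa. Their median log2 fold change was -0.61 with acetate in PBS-injected mice, 0.52 with acetate in tau-injected mice, -0.62 with tau on the control diet and 0.47 with tau on the acetate diet, against medians of all genes between -0.00354 and 0.00416. All 10 markers had the sign of Aspa in each of these comparisons, and edgeR called 4 of them, all with acetate in PBS-injected mice (8.84% of all genes). For the interaction 0 of the 10 were called by edgeR (1.56% of all genes) and 10 by DESeq2 (434 of 19626 genes). All 10 had an unadjusted p below 0.05 by edgeR, as had 1916 of 14742 genes. Relative to these markers, the log2 level of Aspa differed by 0.10 and 0.08 with acetate in PBS-injected and tau-injected mice and by -0.09 and -0.11 with tau on the control and the acetate diet (exact two-sided permutation tests, p = 0.5, 0.4, 0.7 and 0.4, where 0.1 is the smallest possible). Markers of another cell type had the same signs. The 5 ependymal markers had medians of -1.15, 0.78, -0.93 and 1.05 in these 4 comparisons and 2.00 for the interaction, and a summed level of 61.0 to 74.0 CPM in PBS-injected control, 34.6 to 40.2 in PBS-injected acetate, 32.6 to 45.9 in tau-injected control and 55.4 to 79.8 in tau-injected acetate mice. Of these 5, edgeR called 5 with acetate in PBS-injected mice (8.84% of all genes), 1 with tau on the acetate diet (0.136%) and 4 for the interaction (1.56%). The 4 thalamus markers had medians of -1.12, -0.14, -0.87 and 0.14 in the same 4 comparisons and 1.01 for the interaction, and edgeR called 0 of the 4. Their summed level was 98.3 to 254 CPM in PBS-injected control and 70.2 to 79.2 in PBS-injected acetate mice. It was 66.9 to 104 CPM in tau-injected control and 74.9 to 89.1 in tau-injected acetate mice. The part of the ependymal and thalamus markers in the values of Aspa was not tested. With the oligodendrocyte marker score as a covariate, the interaction of Aspa was 0.11 in place of 1.07. Its log2 fold change with acetate was then 0.02 in place of -0.50 in PBS-injected mice and 0.13 in place of 0.57 in tau-injected mice. In bulk tissue, fewer oligodendrocytes and less Aspa RNA in each of them cannot be told apart. The genes whose log2 CPM was most like that of Aspa over the 12 mice were Litaf (Pearson's r = 0.97), Hapln2 (0.96) and Otud7b (0.96), the first 3 of all genes tested. These coefficients describe 12 mice of 4 groups, whose differences enter them. The ratio of Nat8l to Aspa counts, of RNA and not scaled by gene length, was 15.7 ± 4.18 in PBS-injected control mice, 22.0 ± 2.20 in PBS-injected acetate mice, 26.2 ± 5.72 in tau-injected control mice and 18.2 ± 4.45 in tau-injected acetate mice (SD, n = 3 each). Over the 12 mice the highest level of Nat8l exceeded the lowest by a factor of 1.16, against 2.23 for Aspa.

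**Figure D3:**
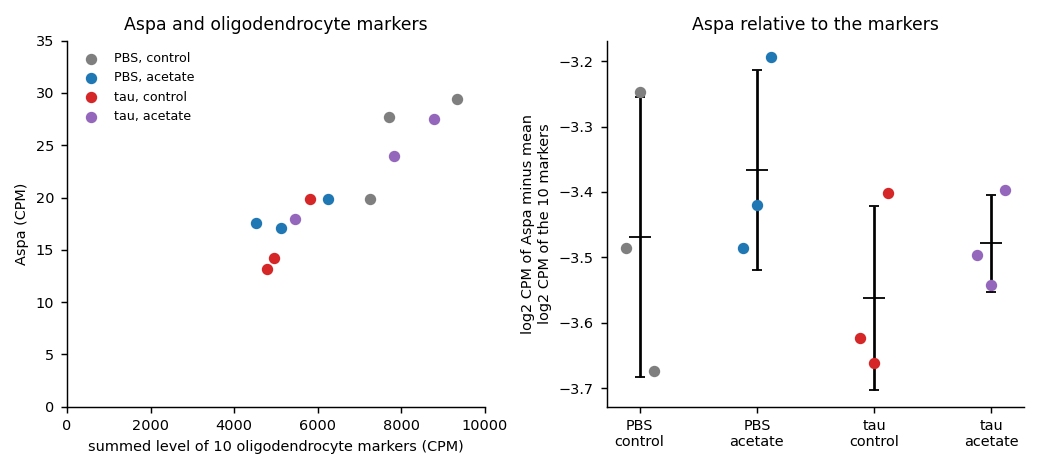
Aspa against oligodendrocyte markers in the 12 mice, coloured by group. The left panel plots Aspa (CPM) against the summed level of the 10 markers (CPM, here after TMM normalisation). The right panel gives the log2 difference of Aspa from the mean of the markers with the mean and SD of 3 mice. Aspa runs from 13.2 to 29.5 CPM along with the markers, and the 4 groups overlap in the right panel.

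In mitochondria, Pdha1 encodes the E1 alpha subunit of the pyruvate dehydrogenase complex, through which pyruvate becomes acetyl-CoA, and lies on chromosome X from 160122209 to 160138413. It had 283, 261 and 281 CPM in PBS-injected control mice, 259, 244 and 259 in PBS-injected acetate mice, 269, 272 and 277 in tau-injected control mice, and 252, 260 and 246 in tau-injected acetate mice. All 6 mice on the acetate diet lay below all 6 on the control diet. The mean was 253 ± 7.13 CPM on the acetate diet and 274 ± 8.03 CPM on the control diet (SD, n = 6 each). Averaged over both injections the log2 fold change was -0.11 (SE 0.03, edgeR adjusted p = 0.0824), a fall of between 2.78% and 12.0% by the 95% interval. Pdha1 was thus 1 of 10 genes called here, where 3.81% of all genes tested were called lower, and 1 of 10 without overlap between the diets, where 1.87% of all genes had none. Within the injections the log2 fold change was -0.11 in PBS-injected mice (edgeR adjusted p = 0.183) and -0.11 in tau-injected mice (edgeR adjusted p = 0.415), in mice that are not shared, with an interaction of 0.00 (95% interval -0.14 to 0.15). With tau the log2 fold change of Pdha1 was -0.01 on either diet.

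The call of Pdha1 lay close to the threshold. Over the 12 fits that each lacked 1 mouse its log2 fold change stayed between -0.13 and -0.09. The call held without mouse 2 of the PBS-injected control group, mouse 3 of the PBS-injected acetate group or mouse 2 of the tau-injected acetate group (edgeR adjusted p = 0.055, 0.0757 and 0.0839) and was lost without any other of the 12 mice, where the adjusted p rose to at most 0.262. DESeq2's Wald test kept the call (adjusted p = 0.032), and it was lost without the low-count filter (edgeR adjusted p = 0.149), with the replicate number as a block (0.116) and with the oligodendrocyte marker score as a covariate (0.101). With the CA1 minus CA3 marker score as a covariate the log2 fold change was -0.09 and the adjusted p 0.680, and with that score 0 of 14742 genes passed, against 1262 at an unadjusted p below 0.05. Of 5 markers of excitatory neurons edgeR called 2, Slc17a7 and Snap25, lower in the same comparison, while 1 other lay below and 2 lay above 0, and the median log2 fold change of the 5 was -0.08. Their summed level was 10662 to 11136 CPM in PBS-injected control mice and 10066 to 10940 CPM in PBS-injected acetate mice, and 10725 to 11075 against 10484 to 10768 CPM in tau-injected mice. The part of these neuronal markers in the change of Pdha1 was not tested. The genes most like Pdha1 over the 12 mice were Efr3a (Pearson's r = 0.97), 2900097C17Rik (0.96) and Hsp90aa1 (0.96). For the other 8 genes the gene most alike was Ccdc42 for Acss1 (0.89), Slco2a1 for Acss2 (0.88), Ppp2r5b for Acly (0.90), Slc2a8 for Slc25a1 (0.92), Bcl2l11 for Slc16a1 (0.97), Usp51 for Slc16a7 (0.90), Ctdnep1 for Nat8l (0.91) and Fas for Acat1 (0.85). Each coefficient is the highest among all genes tested, over 12 mice and without a test. Ccdc42 (0.405 CPM), Fas (1.52 CPM) and Usp51 (1.59 CPM) had low mean levels.

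Other subunits of the complex were read beside Pdha1. Pdhb, the E1 beta subunit that pairs with Pdha1, had 87.1, 87.2 and 98.0 CPM in PBS-injected control mice and 82.1, 81.9 and 85.8 in PBS-injected acetate mice. In tau-injected mice Pdhb had 91.9, 87.9 and 89.7 CPM on the control diet and 81.2, 82.2 and 81.9 on the acetate diet. As with Pdha1, all 6 acetate mice lay below all 6 control-diet mice, with a log2 fold change averaged over both injections of -0.13 (SE 0.04, edgeR adjusted p = 0.0824). Dlat, the E2 subunit that passes the acetyl group to coenzyme A, had 123 to 140 CPM on the acetate diet and 135 to 162 CPM on the control diet, with a log2 fold change of -0.17 (SE 0.04, edgeR adjusted p = 0.0402) and some overlap. Dlat was also called in PBS-injected mice alone, at -0.25 (edgeR adjusted p = 0.0332). Pdhx and Dld, the E3 binding and E3 subunits, were not called. With acetate in tau-injected mice the log2 fold change of Dld was -0.17 (SE 0.06, edgeR adjusted p = 0.286). The averaged changes of Pdhb and Dlat depended on the fit. Over the alternatives other than leaving out 1 mouse, that of Pdhb ranged from -0.13 to -0.07 and that of Dlat from -0.17 to -0.06. Their adjusted p by edgeR or DESeq2's Wald test rose to at most 0.786 and 0.824. The promoter windows of Pdha1, Pdhb and Dlat are shown because edgeR called these 3 subunits lower in the averaged comparison. They are from RefSeq on GRCm38.p6, on the minus strand of chromosomes X, 14 and 9, and end before the start of the gene in both RefSeq and GENCODE, that of Pdha1 a few bases before its GENCODE start, and capitals mark GC boxes (GGGCGG) and CCAAT boxes (CCAAT) on either strand.

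Pdha1, chrX:160138431-160138680: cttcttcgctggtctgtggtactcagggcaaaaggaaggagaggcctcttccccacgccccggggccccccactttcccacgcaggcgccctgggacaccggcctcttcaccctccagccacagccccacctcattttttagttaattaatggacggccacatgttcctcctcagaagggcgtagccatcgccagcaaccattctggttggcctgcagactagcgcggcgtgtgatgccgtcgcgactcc
Pdhb, chr14:8173026-8173242: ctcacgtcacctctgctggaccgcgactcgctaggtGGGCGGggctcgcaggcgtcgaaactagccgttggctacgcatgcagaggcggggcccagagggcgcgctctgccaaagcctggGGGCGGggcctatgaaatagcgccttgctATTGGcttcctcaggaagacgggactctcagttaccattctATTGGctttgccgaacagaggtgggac
Dlat, chr9:50659781-50660030: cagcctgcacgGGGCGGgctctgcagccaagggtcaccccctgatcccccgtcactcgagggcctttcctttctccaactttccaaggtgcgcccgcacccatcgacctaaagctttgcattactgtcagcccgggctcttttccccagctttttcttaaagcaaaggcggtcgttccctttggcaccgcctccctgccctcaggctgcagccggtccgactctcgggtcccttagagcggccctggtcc

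The window of Pdha1 held neither motif in the 250 bases before its start, that of Dlat held 1 GC box, and that of Pdhb 2 GC boxes and 3 CCAAT boxes, of which the bases printed show those before the annotated gene. A GC box is found in 32.7% and a CCAAT box in 33.8% of 32851 mouse windows of this length. The sterol regulatory element searched as TCACNCCAC, present in 1.05% of windows, was in none of these 3 and in none of the 7 windows held for the 10 genes. These counts describe the letters of the windows.

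**Figure D4:**
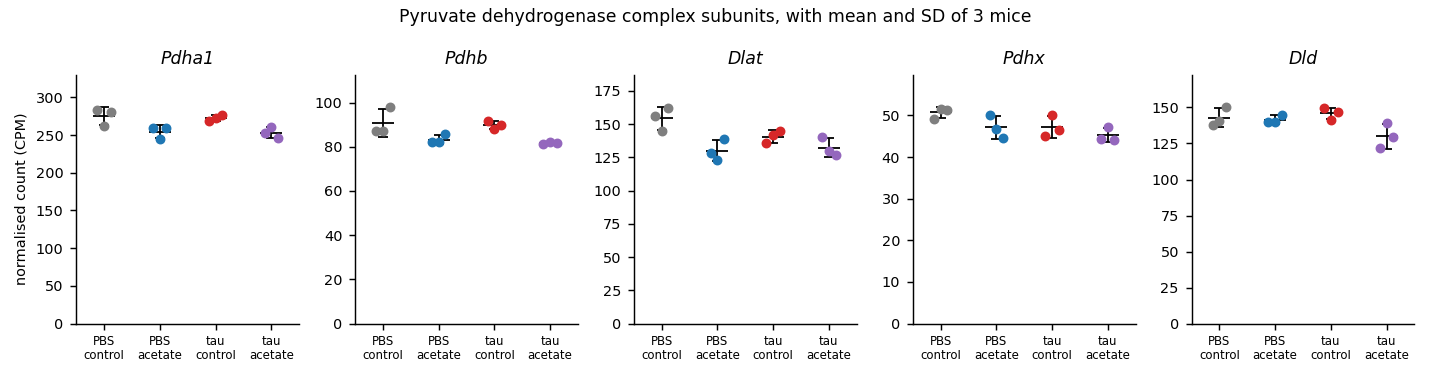
Normalised counts (CPM) of 5 pyruvate dehydrogenase complex subunits by group, each axis starting at 0. Points are mice and bars give the mean and SD of 3 mice; in Pdha1 and Pdhb the 6 acetate-diet mice lie below the 6 control-diet mice, Dlat is lower with some overlap, and Pdhx and Dld were not called.

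Acat1, the mitochondrial thiolase that joins or splits acetyl-CoA and acetoacetyl-CoA, lies on chromosome 9 from 53580522 to 53610382. It had 90.3, 89.2 and 92.0 CPM in PBS-injected control mice, 90.7, 90.9 and 90.0 in PBS-injected acetate mice, 87.0, 87.3 and 87.8 in tau-injected control mice, and 84.9, 92.9 and 93.9 in tau-injected acetate mice. Tau-injected mice lay below PBS-injected mice on the control diet with no overlap, by a log2 fold change of -0.05 (95% interval -0.16 to 0.06). The ratio of Pdha1 to Acat1 counts was 3.04 ± 0.10 and 3.12 ± 0.03 on the control diet (PBS-injected, then tau-injected mice) and 2.81 ± 0.10 and 2.80 ± 0.18 on the acetate diet (SD, n = 3 each).

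**Figure D5:**
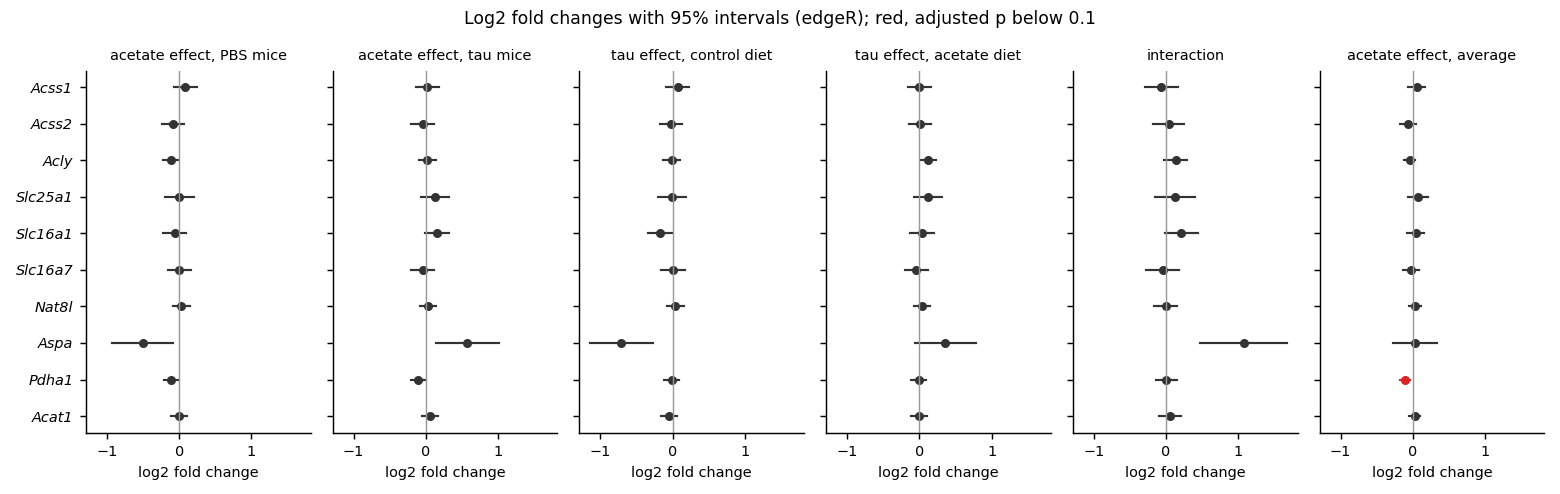
Log2 fold changes (points) with 95% intervals (lines) of the 10 genes in the 6 comparisons, by edgeR. Pdha1 in the averaged comparison, at -0.11, is in red as the value with an adjusted p below 0.1; the intervals of Aspa are the widest, and its interaction stands at 1.07.

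Counted over the comparisons, the 10 genes gave few calls. With acetate in PBS-injected mice 0 of 10 were called, where 8.84% of all genes tested were, and 3 (Acly, Aspa and Pdha1) did not overlap between the diets, where 26.3% of all genes did not. In tau-injected mice 0 were called with acetate (0.0611% of all genes), and 1, Pdha1, did not overlap (14.4%). With tau 0 were called on the control diet (0.0136%) and 3 (Slc16a1, Aspa and Acat1) did not overlap (13.5%), and 0 were called on the acetate diet (0.136%) and 1, Acly, did not overlap (16.2%). The interaction called 0 of 10, against 1.56% of all genes. At an unadjusted p below 0.05 edgeR counted 2, 2, 2, 1 and 1 of the 10 genes in these 5 comparisons. Of all 14742 genes 3062, 1603, 1423, 1523 and 1916 lay below it. DESeq2's Wald test called 1, 1, 1, 0 and 1 of the 10, each time Aspa, and 1371, 175, 86, 112 and 434 of 19626 genes. The median log2 fold change of the 10 genes was -0.03, 0.02, -0.01 and 0.02 in the 4 comparisons of pairs of groups, where the medians of all genes lay between -0.00354 and 0.00416.

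The remaining genes of these pathways were read from 5 lists of 57 genes, of which 53 passed the filter. On the acetate diet averaged over both injections, 5 of the 53 were lower and 1 higher by edgeR's test, where 5.76% of all genes were called and 3.81% lower, and DESeq2's Wald test called these 6 and also Hmgcs1 and Pdp1. Among 13 genes from pyruvate to acetyl-CoA, Pdhb and Dlat fell, and the kinases Pdk1 to Pdk4, the phosphatases Pdp1 and Pdp2 and the pyruvate carrier genes Mpc1 and Mpc2 were not called by edgeR. Among 12 genes of cytosolic acetyl-CoA and citrate 2 fell: Me1, the cytosolic malic enzyme, by a log2 fold change of -0.29 (edgeR adjusted p = 0.04), and Acot7, an acyl-CoA thioesterase, by -0.16 (edgeR adjusted p = 0.0921). Among 9 genes of ketone bodies 1 fell: Oxct1, which activates acetoacetate with succinyl-CoA, from 347 ± 9.67 CPM on the control diet to 317 ± 7.90 CPM (SD, n = 6 each) with acetate, or -0.13 in log2 (edgeR adjusted p = 0.0404). All 6 acetate mice lay below the 6 control-diet mice in Oxct1. Of 7 tested carriers 1 rose, Slc16a11, a monocarboxylate transporter gene, by 0.31 (edgeR adjusted p = 0.0756). Of 12 tested genes of N-acetylaspartate and its dipeptide NAAG, among them the NAAG synthetases Rimkla and Rimklb and the NAAG peptidase Folh1, 0 were called in any comparison by edgeR or DESeq2, and at most 2 had an unadjusted p below 0.05 in a comparison. The smallest p in this list was that of Rimkla for the interaction (-0.36, SE 0.14, edgeR adjusted p = 0.249).

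Acetate in PBS-injected mice alone gave 4 calls by edgeR among the 53 genes, where 8.84% of all genes tested were called, and 7 by DESeq2 (1371 of 19626 genes). The 4 were lower for Dlat, Me1 (-0.40, edgeR adjusted p = 0.0411) and Oxct1 (-0.14, edgeR adjusted p = 0.0858) and higher for Slc16a11 (0.43, edgeR adjusted p = 0.0611). In the other 4 comparisons edgeR called 0 of the 53 genes. From 3 to 5 of them had an unadjusted p below 0.05, against 1423 to 1916 of 14742 genes. DESeq2 called 1, Acss3, with tau on the acetate diet (112 of 19626 genes). Acss3, the third acyl-CoA synthetase of this family, was low, at 2.34 ± 0.245 CPM in tau-injected and 0.951 ± 0.188 CPM in PBS-injected acetate mice (SD, n = 3 each), a difference in log2 of 1.29 (SE 0.29, edgeR adjusted p = 0.133). None of the 6 calls of the averaged comparison held without PBS-injected control mouse 3 or without PBS-injected acetate mouse 2, where the log2 fold changes kept their direction. The calls held in 9 of the 12 fits that each lacked 1 mouse for Oxct1, 8 for Me1, 7 for Dlat, 5 for Slc16a11 and 4 for Pdhb and Acot7. With the CA1 minus CA3 marker score as a covariate, 0 of 14742 genes passed in the averaged comparison.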

How the data were processed

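Stranded poly(A) libraries were made from 300 ng hippocampal RNA of each of 12 mice. The authors used STAR 2.5.2a with GRCm38, counted reads per gene on the reverse strand with HTSeq 0.9.1 and deposited the raw counts; the annotation is not given in the sources used here. From these counts, genes were kept by filterByExpr (minimum count 10, minimum total 15), scaled by TMM and fitted with edgeR 4.0.16's quasi-likelihood test in R 4.3.3 with 1 mean per group over 12 mice (8 residual degrees of freedom), adjusted by Benjamini-Hochberg over all 14742 genes. Standard errors and 95% intervals, which are not adjusted, were derived from the F statistic. The functions were tested on simulated data. The 10 genes, the pathway and marker lists and the tests were chosen with earlier results of these data known. The genes named are the 10, the list members called, the 3 genes most like Aspa and Pdha1, and the complex subunits. Coordinates and lengths come from GENCODE M21. Whether the mice of a group came from separate cages is not given in the sources used here, so p-values measure the spread between these mice. Alternatives were DESeq2 1.42.0 (its size factors, and its Wald test), no filter, a threshold of 0.05, the 6 compared mice alone, a replicate block, oligodendrocyte and CA1 minus CA3 scores as covariates, each mouse left out and, added after the data were seen, transcript length.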

Additional observations from a re-analysis of the deposited data

Results flagged for a closer look

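In Acly and in Aspa every mouse of each acetate group lay on 1 side of the mean of its own control-diet group, and the sides differed between the 2 injections. For Acly the 3 PBS-injected acetate mice lay below and the 3 tau-injected acetate mice above, with an interaction of 0.133 on the log2 scale. The tau-injected groups of Acly overlapped, and their log2 fold change was 0.02 (95% interval -0.09 to 0.13). For Aspa the mice lay likewise, with an interaction of 1.073. The difference itself missed the threshold by edgeR's interaction test in both genes (adjusted p = 0.493 for Acly and 0.121 for Aspa). DESeq2's Wald test called the interaction of Aspa (adjusted p = 0.0043). The 10 oligodendrocyte markers had a median interaction of 1.11. Of them 0 of 10 were called by edgeR (1.56% of all genes) and 10 by DESeq2 (434 of 19626 genes). The part of these markers was not tested beyond the values given above.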

How the results depend on the processing

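Of 1120 values of the 10 genes under the alternatives other than the threshold of 0.05, 1098 kept their side of the threshold, 13 lost and 9 gained a call, and 0 called values changed sign. Another 121 values that were not called took the other sign. The largest of these was Aspa with acetate in PBS-injected mice, at -0.50 in the main fit and 0.02 with the oligodendrocyte score. DESeq2's Wald test raised the count of genes called from 0 to 1 (Aspa) for acetate in PBS-injected mice, acetate in tau-injected mice, tau on the control diet and the interaction, and edgeR on the 6 compared mice did so for acetate in PBS-injected mice. With acetate averaged, the count fell from 1 to 0 without the filter, at 0.05, with the replicate block and with either marker score as covariate. With each mouse left out in turn it was 0 to 1 for acetate in PBS-injected mice, the interaction and the average, and 0 in the other comparisons.

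The replicate numbers do not pair the mice (2 of 18 same-number pairs correlated above 0.1, and 3 of 12 mice correlated best with their own number). With the replicate block 0 of the 10 genes were called for the average, against 1 without it (Pdha1, edgeR adjusted p = 0.116), and the block changed no other count.

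Over all genes, counts of calls moved by over 1.5 times as follows, by edgeR unless DESeq2 is named. For acetate in PBS-injected mice 1303 became 541 at 0.05, 2 with the oligodendrocyte score and 0 with the CA1 minus CA3 score. For acetate in tau-injected mice 9 became 56 without the filter, 175 by DESeq2, 2 on 6 mice, 3 at 0.05 and 61 with the CA1 minus CA3 score. For tau on the control diet 2 became 86 by DESeq2, 35 on 6 mice and 9 with the block, and 0 at 0.05 or with either score. For tau on the acetate diet 20 became 37 without the filter, 112 by DESeq2, 0 at 0.05 and 6 with the CA1 minus CA3 score. For the interaction 230 became 434 by DESeq2, 43 at 0.05, 349 with the block, 5 with the oligodendrocyte and 4 with the CA1 minus CA3 score. For the average 849 became 389 at 0.05 and 0 with the CA1 minus CA3 score. With each mouse left out the counts ranged from 15 to 1355 for acetate in PBS-injected mice, 1 to 66 for acetate in tau-injected mice, 0 to 16 for tau on the control diet, 0 to 93 for tau on the acetate diet, 8 to 442 for the interaction and 221 to 1092 for the average. Without PBS-injected acetate mouse 2 they were 15, 3, 0, 0, 8 and 221 in this order. The covariates and the groups overlap, so a covariate also removes part of a difference between groups. Other causes of these moves were not tested.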
